A study of Oryzias latipes with 24 samples.

Results

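The oocyte genes bmp15, zar1, zar1l and figla were followed through medaka (Oryzias latipes) development. They are 4 of the 26549 genes in the expression table and were taken by their identifiers. An egg is loaded with messenger RNA by the mother's ovary, and the early embryo lives on this supply until it transcribes its own genome and clears the maternal RNA. Much of the stored RNA is held silent by RNA-binding proteins until the egg is activated. Genes transcribed in oocytes give this supply its RNA, and in the next generation they are transcribed again when its own germ cells become oocytes.

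Roles of the 4 genes are known mainly from mouse and zebrafish. Figla is a basic helix-loop-helix transcription factor that mouse oocytes need to form follicles and to express egg coat genes. Bmp15 is a secreted ligand of the TGF-beta family through which the oocyte acts on the follicle cells around it, and zebrafish that lack it do not keep an ovary. Zar1 (zygote arrest 1) and its paralog Zar1l are RNA-binding proteins with a zinc finger, and they act on the storage and translation of maternal messenger RNA.

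The series holds 22 RNA libraries of whole animals at stages 6, 11, 15, 19, 25, 29, 32, 36, 38, 40 and 41, with 2 libraries per stage. The study places stage 6 in cleavage, stage 11 in the blastula, stage 15 in the middle of gastrulation and stage 19 at the first somites, and it speaks of a larva, which is read here as stage 41. The labels name no treatment or mutation, and 20 libraries come from Hd-rR, an inbred strain. Replicate 2 of stages 40 and 41 is labelled d-rR / Qurt, called the other strain below, and at these stages strain and replicate number cannot be told apart. The study's methods describe embryos pooled by stage. They also mention larval gonads taken by microdissection and do not say which libraries, if any, hold them. The study's d-rR line carries a reporter, olvas-GFP, in which vasa regulatory sequence drives a fluorescent protein in germ cells. Values are TPM, which scale each gene's reads by transcript length and by the library's total, so a level is relative to all other poly(A) RNA. In whole animals a change in the number of oocytes and a change in RNA per oocyte cannot be told apart. Nor can a change in a gene's RNA amount be told apart from a change in how much of it carries poly(A).

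The study's gene models give the place and the exons of each gene. The coordinates are those of these models, whose genome build is not given in the sources used here. The bmp15 model (IGDB17353) lay on chromosome 18 from 21189106 to 21192340 on the plus strand, with 2 exons and 2187 transcribed bases. The figla model (IGDB26353) lay on chromosome 9 from 24881689 to 24903833 on the plus strand. It had 2 transcripts, with 6 exons and 1196 bases or 5 exons and 1139 bases, and the study's transcription factor list puts it in the bHLH family.

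The paralogs zar1 and zar1l shared the layout of their genes. The zar1 model (IGDB21830) lay on chromosome 4 from 1220519 to 1221856 on the plus strand, and the zar1l model (IGDB14332) on chromosome 14 from 9912526 to 9914544 on the minus strand. Each had 4 exons, and in both genes exon 2 was 93 bases long and exon 3 was 75 bases long. The outer exons differed, with 683 bases in exon 1 and 243 bases in exon 4 of zar1, and 664 and 831 bases in zar1l. Of the 1094 exonic bases of zar1, 546 were shared with exons of fryl on the opposite strand. The libraries keep strand, but it is not given in the sources used here whether the quantification used it. In the stage 40 libraries fryl had 14.4 and 13.6 TPM, while zar1 was listed at 0 in replicate 1 and had 0.636 TPM in replicate 2. Another model, IGDB07585, which has no symbol here, spanned the whole of zar1 on the same strand and shared 0 exonic bases with it. It had 1.62 and 1.69 TPM at stage 40 and 0.274 and 0.964 TPM at stage 41. The other 3 genes overlapped no other model.

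All 4 genes were abundant at the first stage and nearly silent before hatching, and all 4 were present again at stage 41. Levels are given below for each library as replicate 1 and replicate 2. bmp15, the oocyte's secreted ligand, had 344.6 and 100.9 TPM at stage 6, 105.8 and 199.9 TPM at stage 11, and 0.726 and 0.440 TPM at stage 15. From stage 19 to stage 40 its 14 libraries ranged from 0 to 0.218 TPM with a median of 0.0766 TPM, and at stage 41 it had 6.65 and 20.8 TPM. Both of its stage 15 libraries were below 1 TPM, which held for none of the other 3 genes. Its 2 stage 6 libraries differed 3.42-fold, the widest gap of the 4 genes at that stage, so its starting level is the least well fixed.

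figla, the transcription factor, had 294.8 and 231.6 TPM at stage 6, 52.3 and 216.6 TPM at stage 11, 4.68 and 3.24 TPM at stage 15, and 3.60 and 5.06 TPM at stage 19. It then had 1.83 and 1.75 TPM at stage 25, 0.401 and 0.348 TPM at stage 29, and at most 0.417 TPM in any library from stage 32 to stage 40. At stage 41 it had 6.83 and 14.5 TPM. A low level thus stayed measurable through the first somites, and figla was at 1 TPM or more in 12 of the 22 libraries, against 6 for bmp15.

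zar1 had 218.3 and 272.0 TPM at stage 6, 90.5 and 225.4 TPM at stage 11, 15.4 and 12.4 TPM at stage 15, and 6.49 and 6.03 TPM at stage 19. The decline went on through 2.97 and 3.85 TPM at stage 25 and 2.09 and 1.19 TPM at stage 29 to between 0 and 1.27 TPM in the libraries of stages 32 to 40. At stage 41 it had 29.2 and 88.8 TPM, the highest level of the 4 genes at that stage. zar1 kept 1 TPM or more in 16 of the 22 libraries, the most of the 4.

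zar1l was the most abundant of the 4 at the start, with 345.0 and 343.7 TPM at stage 6 and 227.7 and 525.4 TPM at stage 11. Only 277 of the 26549 genes were higher at stage 6, and 269 at stage 11. It had 12.4 and 14.2 TPM at stage 15, 1.86 and 1.86 TPM at stage 19, and 0.467 and 0.567 TPM at stage 25. From stage 29 to stage 40 no library exceeded 0.308 TPM, and at stage 41 it had 16.9 and 49.2 TPM.

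**Figure D1:**
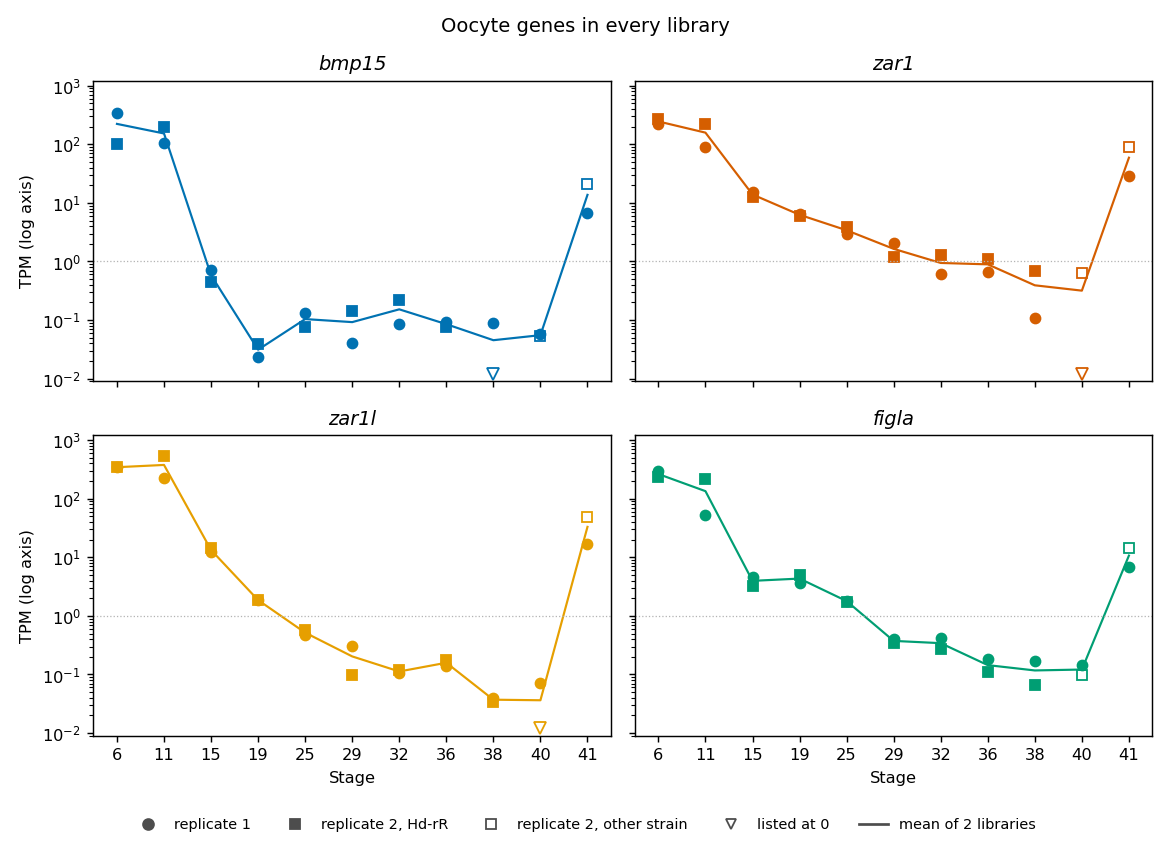
Levels of bmp15, zar1, zar1l and figla in TPM on a log axis at the 11 stages. Each point is a library (circles replicate 1, squares replicate 2, open squares the other strain), open triangles are libraries listed at 0, lines join the means of 2 libraries, and the dotted line is 1 TPM. All 4 genes stand above 50 TPM in every library of stages 6 and 11 and above 6 TPM in both libraries of stage 41.

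Ordered by mean level, stages 6, 11 and 41 came first for bmp15, zar1 and figla, in that order, and stages 11, 6 and 41 for zar1l. The libraries of stages 6 and 11 overlapped for bmp15, zar1 and zar1l, and for figla they did not. Stage 41 stood apart from its neighbours in the order for each of the 4 genes. At the low end the stages overlapped with their neighbours: stages 40, 38 and 19 for bmp15, stages 29, 32, 36, 38 and 40 for zar1, stages 38 and 40 for zar1l, and stages 36, 40 and 38 for figla. Over all 11 stages the levels changed for all 4 genes by limma's F test, with adjusted p-values between 3.66e-12 for zar1l and 2.26e-10 for zar1. That test was passed by 92.7% of all 21179 genes tested, so passing it says little about these 4.

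The first comparison asks whether the maternal supply had already moved by the blastula. None of the 4 genes passed the test at stage 11 against stage 6 (1 had an unadjusted p under 0.05), where 4.24% of all tested genes were called lower and 7.65% higher. A call needed a limma adjusted p under 0.05 and a change of at least 1 on the log2(TPM + 1) scale. The log2 changes were 0.01 for zar1l (95% interval -0.84 to 0.86), -0.36 for bmp15 (-1.37 to 0.65), -0.77 for zar1 (-1.77 to 0.24) and -1.29 for figla (-2.26 to -0.31, adjusted p = 0.0852 in limma). In all 4 genes replicate 2 of stage 11 was higher than replicate 1, by 1.89-fold for bmp15, 2.31-fold for zar1l, 2.49-fold for zar1 and 4.14-fold for figla. Over the 11136 genes at a mean of 5 TPM or more at stage 11, the median of that ratio was 1.3. Of these genes 21.6% were more than 2-fold higher in replicate 2 and 8.38% more than 2-fold lower. The value for figla depended on this pair: without replicate 2 of stage 11 its change was -2.30 and was called (adjusted p = 0.000291 in limma), and without replicate 1 it was -0.27.

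Between the blastula and the middle of gastrulation all 4 genes fell. At stage 15 against stage 11 the 4 of 4 calls stand beside 20.1% of all tested genes called lower. bmp15 fell by 6.54 on the log2(TPM + 1) scale (SE 0.48, 95% interval -7.55 to -5.53, adjusted p = 2.37e-08 in limma), and only 2 of the 21179 tested genes had a larger fall. Its mean TPM was 0.583 at stage 15 and 152.8 at stage 11, which is 262-fold lower. bmp15 had the lowest level of the 4 in both libraries of stage 15.

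zar1l fell by 4.60 (SE 0.40, -5.45 to -3.75, adjusted p = 1.50e-07 in limma), which is a 28.3-fold lower mean TPM. figla fell as well, with a change of -4.455 (SE 0.46, -5.43 to -3.48, adjusted p = 9.72e-07 in limma) and a 33.9-fold lower mean TPM. zar1 had the smallest fall of the 4, by 3.28 (SE 0.48, -4.29 to -2.27, adjusted p = 3.19e-05 in limma), an 11.4-fold lower mean TPM. The interval of bmp15 did not overlap those of the other 3 genes, and their intervals overlapped each other. A difference between genes was not tested. The size of each fall depended on which stage 11 library was kept: without replicate 2 the changes were -6.08 for bmp15, -4.0 for zar1l, -3.44 for figla and -2.63 for zar1, and without replicate 1 they were -6.99, -5.21, -5.47 and -3.93. All 8 of these stayed past the threshold.

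High maternal RNA often went this way. Of the 2351 genes with a mean of 100 TPM or more at stage 6, 1109 (47.2%) fell at stage 15 against stage 11, and the 4 oocyte genes are among them. Against stage 6, stage 15 was lower for all 4, where 25% of all tested genes were called lower. The log2 changes were -6.89 for bmp15, -5.74 for figla, -4.60 for zar1l and -4.05 for zar1. At stage 15 the mean level as a percent of stage 6 was 0.262% for bmp15, 1.505% for figla, 3.86% for zar1l and 5.67% for zar1. The value for bmp15 moved from -6.01 without replicate 1 of stage 6 to -7.78 without replicate 2.

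The remainder was followed beyond gastrulation. At stage 19 against stage 15 only zar1l fell, by 2.32 (SE 0.40, adjusted p = 0.000494 in limma), beside 8.02% of all tested genes called lower. zar1 changed by -1.03 (adjusted p = 0.151), bmp15 by -0.61 (adjusted p = 0.453) and figla by 0.11 (adjusted p = 0.984), and none of these passed. The intervals of zar1l (-3.17 to -1.47), zar1 (-2.04 to -0.02) and bmp15 (-1.62 to 0.40) overlapped, and a difference between genes was not tested. In TPM, zar1l was 7.16-fold lower at stage 19 than at stage 15, zar1 was 2.22-fold lower, and the figla libraries of the 2 stages overlapped. bmp15 was already under 1 TPM, where adding 1 TPM before taking logs hides most of a change: with 0.1 TPM added in its place its change was -2.35 (adjusted p = 0.00903 in limma).

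At each of the 6 later steps up to stage 40 none of the 4 genes passed limma's test. An unadjusted p under 0.05 was reached only by zar1l at stage 25 against stage 19 and by figla at stage 29 against stage 25. These levels are near or under 1 TPM, where adding 1 TPM hides much of a change. With 0.1 TPM added, zar1l was called at stage 25 against stage 19 (-1.67, adjusted p = 0.0367) and figla at stage 29 against stage 25 (-2.0, adjusted p = 0.0246). All tested genes called in either direction were 8.97% at stage 25, 8.26% at stage 29, 0.00472% at stage 32, 4.39% at stage 36, 4.41% at stage 38 and 0.335% at stage 40, each against the stage before. Their log2 changes at these steps lay between -1.02, for figla at stage 29 against stage 25, and 0.10, for bmp15 at stage 25 against stage 19. Over the whole interval, stage 40 against stage 15, 3 of the 4 genes fell, beside 21.3% of all tested genes called lower. The changes were -3.78 for zar1l, -3.53 for zar1 and -2.13 for figla. bmp15 changed by -0.58 (adjusted p = 0.296 in limma), and with 0.1 TPM added in place of 1 it was called, at -2.10 (adjusted p = 0.00588). The median change of all tested genes over that interval was 0.48, so relative to that shift the 4 changes were -4.26, -4.01, -2.61 and -1.06. With 5 TPM added in place of 1 the call for figla was lost, at -0.80 (adjusted p = 0.0949).

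The last step, stage 41 against stage 40, asks whether RNA of the 4 genes was back in the larva. Libraries of whole animals do not show which cells held it. All 4 genes rose, beside 5.22% of all tested genes called higher. zar1 rose by 5.35 on the log2(TPM + 1) scale (SE 0.48, 95% interval 4.34 to 6.35, adjusted p = 3.61e-07 in limma) and zar1l by 4.85 (SE 0.40, 4.0 to 5.71, adjusted p = 1.48e-07). bmp15 rose by 3.61 (SE 0.48, 2.60 to 4.62, adjusted p = 4.50e-05 in limma) and figla by 3.30 (SE 0.46, 2.32 to 4.28, adjusted p = 8.48e-05). In each gene both libraries of stage 41 lay above both libraries of stage 40. How many of all tested genes did so was not counted, so this separation says little about the 4.

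The median of all tested genes moved by -0.22 at this step, and relative to it the changes were 5.57 for zar1, 5.08 for zar1l, 3.83 for bmp15 and 3.52 for figla. In TPM, bmp15 had 6.65 and 20.8 at stage 41 against 0.0567 and 0.0538 at stage 40, a 248-fold higher mean. figla had 6.83 and 14.5 TPM at stage 41 against 0.145 and 0.0982 TPM at stage 40, an 88.0-fold higher mean. Both ratios rest on stage 40 levels near 0 at unknown depth, so their size is poorly fixed. For zar1 and zar1l a stage 40 library was listed at 0, so no ratio is given. fryl, which shares exonic bases with zar1 on the other strand, had 15 and 16.2 TPM at stage 41 against 14.4 and 13.6 TPM at stage 40.

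**Figure D2:**
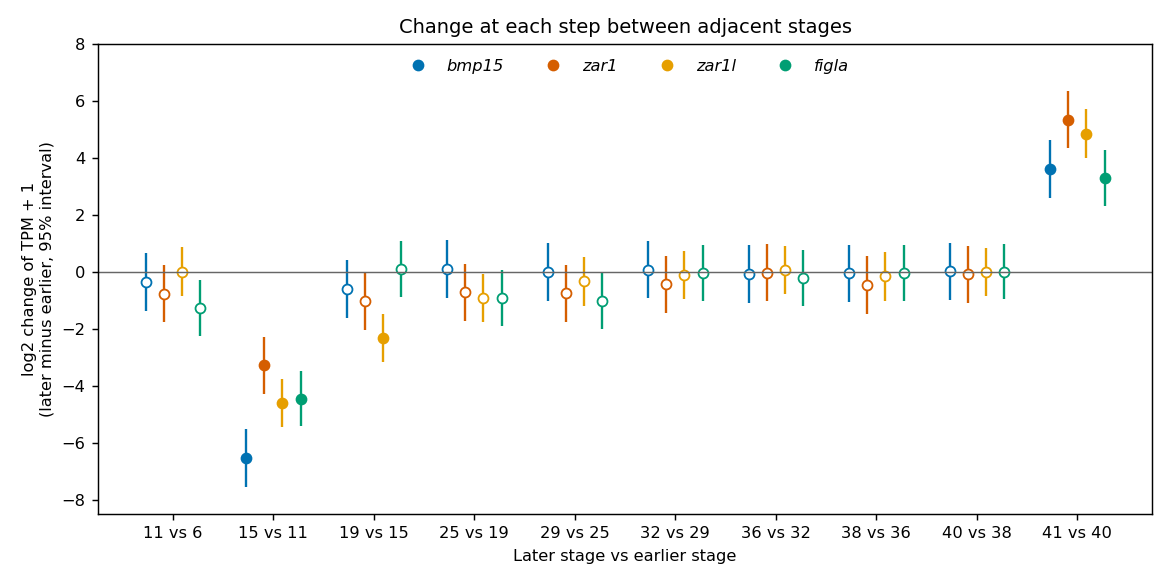
log2 change of TPM + 1 at the 10 steps between adjacent stages (later minus earlier) for the 4 genes. Points are estimates of limma with 95% intervals, filled where the change was called. The calls stand at 3 steps: all 4 genes at 15 vs 11, zar1l at 19 vs 15 and all 4 genes at 41 vs 40.

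The other strain was the higher of the 2 libraries at stage 41 in all 4 genes: replicate 2 over replicate 1 was 3.12 for bmp15, 3.04 for zar1, 2.91 for zar1l and 2.13 for figla. Over the 13762 genes at a mean of 5 TPM or more at stage 41, the median of that ratio was 1.14. Of these genes 10% were more than 2-fold higher in replicate 2 and 3.11% more than 2-fold lower. With the other strain left out of both stages the 4 genes still rose, by 4.92 for zar1, 4.06 for zar1l, 2.85 for bmp15 (adjusted p = 0.00877 in limma) and 2.77 for figla (adjusted p = 0.0175). Without replicate 1 of stage 41 the changes were 6.13, 5.60, 4.37 and 3.79 in the same order, and without replicate 2 of stage 41 alone they were 4.56, 4.11, 2.86 and 2.80. The part of strain in the level at stage 41 cannot be told apart from that of the replicate. In these fits a stage with 1 library is taken to vary like the other stages.

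The RNA of the larva also exceeded that of the organ-forming embryo. At stage 41 against stage 25, all 4 genes rose, beside 24.0% of all tested genes called higher, by 4.30 for zar1l, 3.57 for zar1, 3.55 for bmp15 and 1.98 for figla. For figla the change was 1.49 (adjusted p = 0.0356 in limma) without replicate 2 of stage 41 and 2.48 without replicate 1. The level of the cleavage embryo was not reached. At stage 41 against stage 6 all 4 genes were lower, beside 29.9% of all tested genes called lower, with log2 changes of -2.23 for zar1, -3.53 for zar1l, -3.86 for bmp15 and -4.57 for figla. The mean at stage 41 was 24.1% of that at stage 6 for zar1, 9.59% for zar1l, 6.15% for bmp15 and 4.06% for figla. Taken singly, replicates 1 and 2 of stage 41 stood at 11.9 and 36.2% of the stage 6 mean for zar1, 4.9 and 14.3% for zar1l, 2.98 and 9.32% for bmp15 and 2.6 and 5.53% for figla. Without replicate 2 of stage 41 the changes were -3.02, -4.27, -4.62 and -5.07 in the same order, and without replicate 1 they were -1.45, -2.78, -3.11 and -4.08. For bmp15 the change was -2.98 without replicate 1 of stage 6 and -4.74 without replicate 2. The median of all tested genes was 0.42 in that comparison.

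Both changes, a fall at stage 15 against stage 11 and a rise at stage 41 against stage 40, were met by 319 of the 21179 tested genes (1.51%). Among the 1109 genes that were high at stage 6 and fell at gastrulation, 158 (14.2%) rose at the last step, and the 4 oocyte genes are among these 158.

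The balance of the 2 paralogs changed over development, and their ratio within a library is given here as a description. It was 1.58 and 1.26 at stage 6, 2.52 and 2.33 at stage 11, 0.804 and 1.15 at stage 15, 0.286 and 0.308 at stage 19, and 0.157 and 0.147 at stage 25. At stage 41 it was 0.578 and 0.554, although each paralog's level differed about 3-fold between the libraries there. zar1l was thus the more abundant paralog in all libraries of stages 6 and 11, and zar1 in all libraries of stages 19, 25 and 41. At stage 15 the 2 libraries fell on either side of 1. Between stages 29 and 40 at least 1 of the 2 paralogs was under 1 TPM in every library, and the ratio carries little there.

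**Figure D3:**
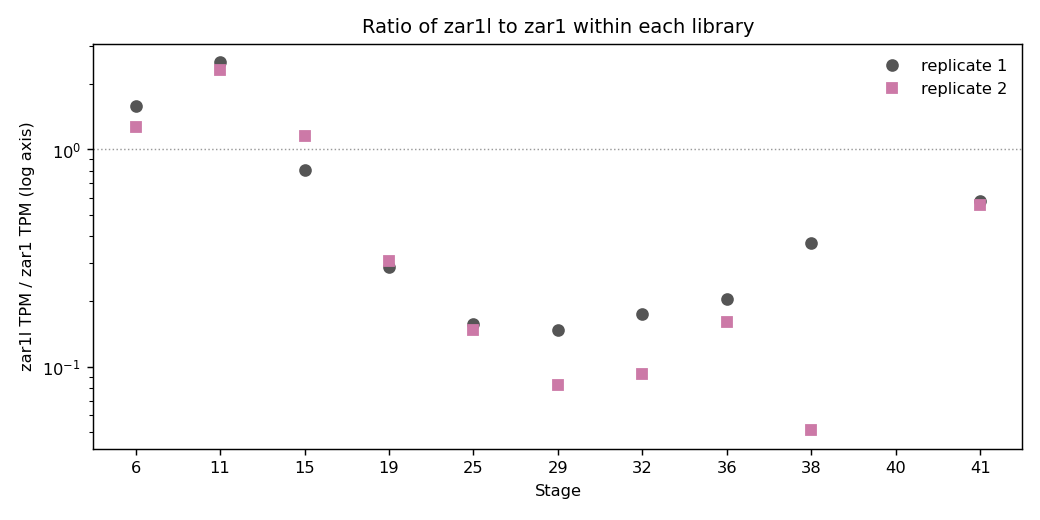
zar1l TPM divided by zar1 TPM within each library, on a log axis, by stage. Circles are replicate 1 and squares replicate 2, with no point where a paralog was listed at 0. The ratio stands above 1 at stages 6 and 11, between 0.28 and 0.31 at stage 19, and between 0.55 and 0.58 at stage 41.

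The profiles of the 4 genes ran closely together. Across the 22 libraries, which share stages and so are not independent, Pearson's r of log2(TPM + 1) was 0.978 for zar1 and zar1l, 0.969 for zar1l and figla, 0.965 for zar1 and figla, 0.954 for bmp15 and zar1l, 0.952 for bmp15 and figla, and 0.920 for bmp15 and zar1. Spearman's rho was between 0.921 and 0.956 for the 3 pairs without bmp15 and between 0.691 and 0.713 for those with it. Among the 7883 named genes with a stage mean of 10 TPM or more, zar1l was the most alike to zar1, and zar1l was the 4th most alike to figla. In likeness to bmp15, zar1l came 20th, figla 21st and zar1 56th. The median r of these genes with the 4 ranged from 0.0781 to 0.125.

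The 5 genes most alike in profile were taken for each of the 4. For bmp15 they were stbd1 (r = 0.986), mov10l1 (0.983), zglp1 (0.982), rnf17 (0.981) and topaz1 (0.978). Mov10l1 and Rnf17 belong to the germline small RNA machinery in mouse. For zar1l they were caprin2 (0.992), ctss (0.987), tdrd1 (0.986), gtf3a (0.982) and zar1 (0.978). Tdrd1 is a Tudor domain protein of germ granules, ctss encodes a cathepsin protease, and gtf3a encodes TFIIIA, which oocytes use for 5S ribosomal RNA.

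For zar1 the 5 were zar1l, caprin2 (0.976), gtf3a (0.976), ctss (0.966) and figla. For figla they were tdrd9 (0.977), a helicase of the small RNA pathway in mouse, caprin2 (0.972), tatdn2 (0.970), zar1l and sytl4 (0.968). Among these were 12 genes that are not part of the 4. All 12 fell at stage 15 against stage 11 and 11 of them rose at stage 41 against stage 40, which their choice by likeness largely fixes. The exception was sytl4, at 0.95 (adjusted p = 0.133 in limma). ctss had the largest rise of the 12 at that step: it had 34.7 and 126.5 TPM at stage 41 against 0.150 and 0.0576 TPM at stage 40, and 745.6 and 937.3 TPM at stage 6. caprin2 had 9.16 and 23.9 TPM at stage 41 against 0.0799 and 0.0666 TPM at stage 40. All 12 were higher in the other strain at stage 41, which their choice by likeness over these same libraries favours. Over all 13762 genes at a mean of 5 TPM or more at stage 41, the median of replicate 2 over replicate 1 was 1.14. Of these 10% were more than 2-fold higher in replicate 2 and 3.11% more than 2-fold lower.

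**Figure D4:**
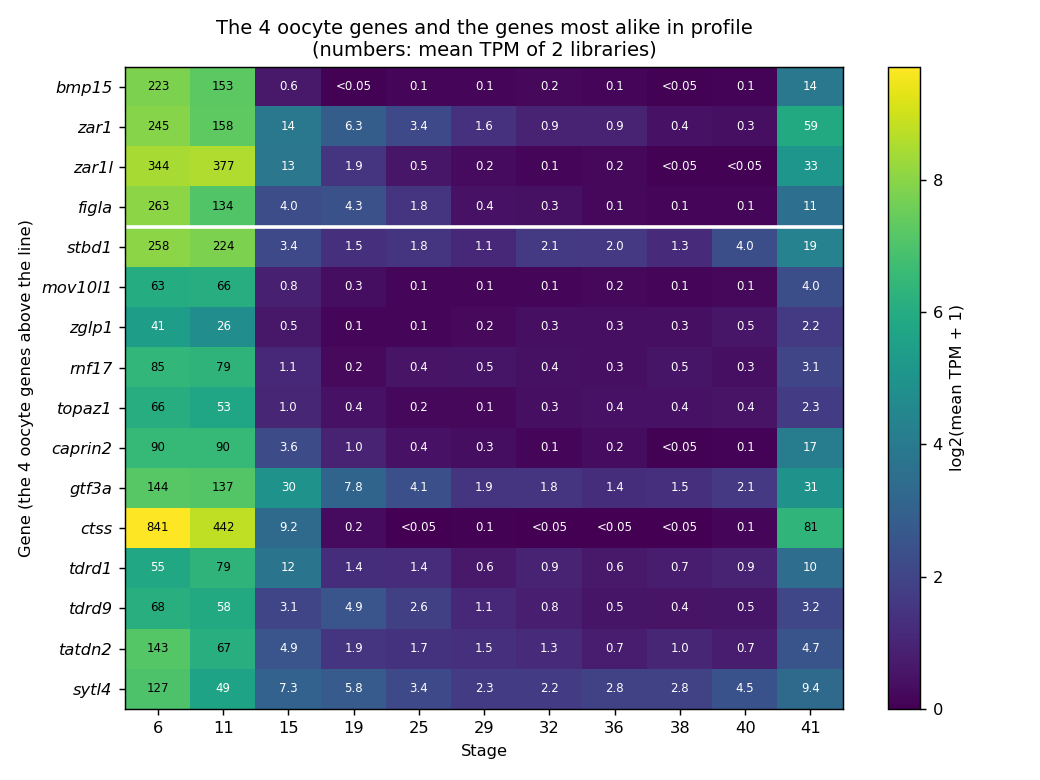
Mean TPM of 2 libraries by stage for the 4 oocyte genes (above the white line) and the 12 other genes most alike in profile (below it), coloured by log2(mean TPM + 1). The 12 genes stand at 3.29 to 21.3% of their stage 6 mean at stage 41, and ctss has the highest level at stage 6.

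Partners of the 4 genes were followed through lists chosen with earlier results of these data known, with the 4 genes left out. Egg coat genes, the targets of Figla in mouse, could not be followed, since 0 of 21 symbols searched matched a gene model here. Of the E proteins and ID proteins, the dimer partners and inhibitors of helix-loop-helix factors, 4 were tested. At stage 15 against stage 11, where figla fell, tcf3 rose by 1.22 and id3 by 3.41, and tcf4 and id2 did not pass (0.31 and 0.10). There 15.1% of all tested genes were called higher. id3 had 309.9 and 287.1 TPM at stage 15 against 87.4 and 7.95 TPM at stage 11, where its libraries lay far apart. At stage 41 against stage 40 none of the 4 passed or had an unadjusted p under 0.05 in limma, and their median change was -0.37. Of all tested genes 5.22% were called higher and 9.71% lower at that step. id2 had 168.4 and 37.4 TPM at stage 41 against 393.2 and 119.5 TPM at stage 40, with replicate 1 the higher library at each stage, and with the replicate number as a block it was called lower (-1.43, adjusted p = 0.0054).

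For bmp15, the list held receptors, intracellular SMADs, inhibitors, targets and processing proteases of BMP signalling, with 14 genes tested. At stage 15 against stage 11, 15.1% of all tested genes were called higher and 20.1% lower. Of the 14 genes 5 rose, 1 fell and 8 did not pass, and the median change was 0.68 against -0.02 over all tested genes. The 5 were the signal transducer smad1 (2.31), the inhibitory smad6 (2.83), the antagonist chrd (1.60), the target id3 (3.41) and the decoy receptor bambi (1.41). chrd had 94.4 and 120.3 TPM at stage 15 against 88.0 and 13.1 TPM at stage 11, so its libraries at stage 11 lay far apart. The stage 11 libraries also lay apart for id3 (87.4 and 7.95 TPM), smad1 (16.4 and 3.63 TPM) and smad6 (3.07 and 1.02 TPM). The gene that fell was furin, a protease that cuts precursors of this ligand family, with 1.98 and 1.94 TPM at stage 15 against 6.33 and 9.35 TPM at stage 11. At stage 41 against stage 40, where bmp15 rose, 5.22% of all tested genes were called higher and 9.71% lower. Of the 14 genes 0 were called by limma, with a median change of -0.47, and 1 had an unadjusted p under 0.05. This was pcsk6, a protease of the furin family, whose change of 0.81 had an adjusted p of 0.0233 in limma and missed only the minimum change of 1. With a replicate block id2 was called lower.

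The RNA-binding role of zar1 and zar1l was followed in 19 genes of maternal RNA storage and translation. At stage 15 against stage 11, 11 fell, 3 rose and 5 did not pass, beside 20.1% of all tested genes called lower and 15.1% higher, with a median change of -1.19. Under median-of-ratios scaling 7 of them fell. ybx2, the germ cell Y-box protein that packs stored messenger RNA, had 145.2 and 134.5 TPM at stage 15 against 1463 and 1424 TPM at stage 11. pabpn1l, an oocyte poly(A)-binding protein, fell by 3.37, and the general Y-box gene ybx1 rose by 1.10. At the last step 2 of the 19 rose and 1 fell, beside 16 that did not pass. Of all tested genes 5.22% were called higher and 9.71% lower there.

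The 2 that rose at stage 41 were cpeb1 and ybx2. cpeb1, which binds the cytoplasmic polyadenylation signal of stored messenger RNA, had 9.99 and 31.4 TPM at stage 41 against 0.880 and 1.11 TPM at stage 40 (log2 change 3.24, adjusted p = 0.000185 in limma). Its stage 6 libraries had 24.0 and 32.6 TPM, so its mean at stage 41 was 73.1% of that at stage 6, with 35.3 and 111% in replicates 1 and 2 of stage 41 taken singly. ybx2 had 53.8 and 89.3 TPM at stage 41 against 30.6 and 22.8 TPM at stage 40 (1.36, adjusted p = 0.00928 in limma). Its mean at stage 41 was 6.73% of that at stage 6. pabpn1l did not pass, at 0.28, and igf2bp1 fell by 1.68.

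Of 33 symbols of oocyte regulators and maternal effect genes, 8 were matched and tested. At stage 15 against stage 11, 6 fell and 2 did not pass, beside 20.1% of all tested genes called lower, with a median change of -1.93. The changes were -5.07 for mos, the kinase that holds the mature egg in arrest, -4.34 for nobox, an oocyte homeobox factor, and -1.45 for dnmt1, the maintenance DNA methyltransferase. At stage 41 against stage 40, 5.22% of all tested genes were called higher and 9.71% lower. Of the 8 only zglp1 was called, at 1.05 (adjusted p = 0.0406 in limma), and under quantile normalization it was not (0.77, adjusted p = 0.0524). nobox had 2.89 and 3.43 TPM at stage 41 against 0.401 and 0.128 TPM at stage 40 and did not pass (1.72, adjusted p = 0.0524), but it was called with a replicate block (adjusted p = 0.0116) and under median-of-ratios scaling (adjusted p = 0.0295). mos (0.44), dnmt1 (0.43), tdrd5 (0.43) and cnot6l (0.07) did not pass. lhx8 and foxl2 went the other way, and neither had a maternal supply here. At stage 6 lhx8 had 0.0903 and 0 TPM, and foxl2 was listed at 0 in both libraries. The change of lhx8, -0.90 (adjusted p = 0.0159 in limma), missed only the minimum change of 1, and foxl2 did not pass (-0.56).

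**Figure D5:**
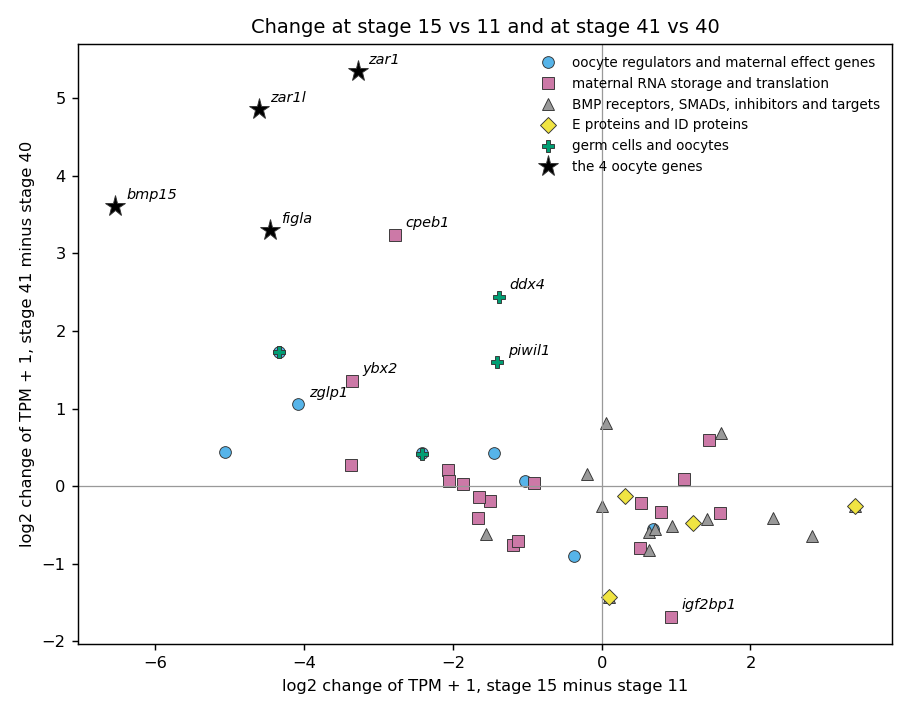
log2 change of TPM + 1 at stage 41 minus stage 40 (vertical) against stage 15 minus stage 11 (horizontal) for the 4 oocyte genes (stars) and the genes of 4 lists and of the germ cell markers. Names mark the 4 genes and those called at the last step. The 4 oocyte genes stand at the upper left, with cpeb1 at -2.78 and 3.24.

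Markers of gonad cells were read beside the rise at stage 41. Of 7 germ cell and oocyte markers 4 were tested, and their summed level was 18.3 and 42.5 TPM at stage 41 against 3.55 and 6.66 TPM at stage 40. ddx4, the medaka vasa gene, rose by 2.44 and piwil1 by 1.60, while nobox and dazl (0.41) did not pass. At that step 5.22% of all tested genes were called higher and 9.71% lower. ddx4 had 7.98 and 24.1 TPM at stage 41 against 1.05 and 2.73 TPM at stage 40, so the other strain was the higher library at both stages. Of these markers dazl was below 1 TPM in both stage 41 libraries, and nobox, an oocyte gene in mouse, was above 2 TPM in both.

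Follicle, testis and sperm markers were read in the same way, beside 5.22% of all tested genes called higher and 9.71% lower at that step. The 3 tested markers of follicle cells summed to 9.61 and 16.2 TPM at stage 41 against 11.5 and 11.3 TPM at stage 40. Of them gsdf, a factor of the cells that surround germ cells in medaka gonads, rose by 1.41. The others, foxl2 (-0.56) and amh (-0.24), went the other way and did not pass. The 3 markers had summed to 18.6 and 18.3 TPM at stage 32, where foxl2 had its highest stage mean. The 3 tested Sertoli and Leydig cell markers summed to 42.9 and 27.7 TPM at stage 41 against 52.7 and 42.7 TPM at stage 40. Within that sum sox9, a Sertoli cell gene that other tissues use as well, fell by 1.10. star, which feeds cholesterol into steroid synthesis, had 23.6 and 10.6 TPM at stage 41 against 7.24 and 7.92 TPM at stage 40, and its change of 0.98 (adjusted p = 0.0358 in limma) missed only the minimum change of 1. The 5 tested genes of the sperm and spermatid list summed to 6.91 and 7.22 TPM at stage 41 against 9.57 and 9.64 TPM at stage 40. Embryos held RNA of these genes as well, so the sum is not specific to sperm. Among them sycp1 had 36.9 and 20.3 TPM at stage 6, and spag6 had 6.34 and 6.75 TPM at stage 19. Within that sum tekt2 (-0.92, adjusted p = 0.0089 in limma) and tekt3 (-0.75, adjusted p = 0.0228) missed only the minimum change of 1. spag6 (-0.37), spata18 (0.30) and sycp1 (0.19) did not pass. The part of germ cell number in the rise of the 4 genes was not tested.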

How the data were processed

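Strand-specific poly(A) libraries of pooled whole embryos, and of the larva at stage 41, were sequenced as paired reads. The submitters' processing notes name HISAT2 2.1.0 and StringTie 1.3.3b. The deposited values are TPM per gene, computed by the authors with StringTie. Replicate 1 columns sum to between 980148 and 998174 TPM and replicate 2 columns to 1000000. TPM keeps no read depth, so the depth is unknown and no counting interval is given. In all, 0 columns lacked a sample. The labels do not say whether the 2 libraries of a stage came from separate clutches, so p-values measure only the spread between libraries.

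Symbols came from RefSeq gene spans at a Jaccard index of at least 0.5, which matched 18106 genes and named 9404 (35.4%). A filter that asked for 1 TPM in 2 libraries or more kept 21179 genes. They entered a single fit of log2(TPM + 1) by limma 3.58.1 (R 4.3.3), which held 11 stage means and a variance prior that follows expression, and p-values were adjusted by Benjamini-Hochberg within each contrast. Such log2 changes understate those of low genes. All 4 oocyte genes passed the filter. Calls were made at an adjusted p under 0.05 together with a minimum log2 change of 1. Tables and plots used Python 3.11.15, numpy 2.4.6, pandas 2.3.3 and matplotlib 3.10.9. The fit was tested on simulated data.

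The 4 genes and the lists were chosen with earlier results of these data known. The comparisons of stage 40 with stage 15 and of stage 41 with stage 6 were added after the values were seen. Named genes are the 4, the 5 most alike in profile to each, the 3 list members with the highest stage mean, and list members of 50 TPM or more called at over 2 steps. Other list genes were named after their values were seen. Alternatives were pseudocounts of 0.1 and 5 TPM, other filters, scalings and minimum changes, no variance trend, a replicate block, 2-stage fits and libraries left out. A table of adult gonads was not used here.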

Additional observations from a re-analysis of the deposited data

How the results depend on the processing

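In the comparisons tallied next, no called change of the 4 genes reversed its direction under any alternative run. Changing the filter or the variance trend, adding the replicate block or fitting only the 2 compared stages leaves the estimate as it is. These settings could move the p-value but could not reverse a direction. Leaving out the other strain moves only estimates that involve stage 40 or 41. Directions of single list genes were not tallied. The log2 changes of the 4 genes were tallied at 4 adjacent steps (stage 11 against 6, 15 against 11, 19 against 15 and 41 against 40) and 4 wider comparisons. Under settings that keep every library, fit only the 2 compared stages or leave out the other strain, 315 kept their side of the threshold. Under these settings 4 newly passed and 1 no longer passed. With a single library left out 127 kept their side of the threshold and 1 newly passed. With a pseudocount of 0.1, bmp15 passed at stage 19 against stage 15 (-2.35) and at stage 40 against stage 15 (-2.10), and the number of the 4 genes called was 2 at stage 19 against stage 15, 1 at stage 25 against stage 19 and 1 at stage 29 against stage 25, steps outside that tally. With a pseudocount of 5, figla no longer passed at stage 40 against stage 15 (-0.80). At stage 11 against stage 6, figla passed under quantile normalization (-1.62) and median-of-ratios scaling (-1.21), so that 1 of the 4 genes was called under each. With single libraries left out its change ranged from -2.30 to -0.27 and the count from 0 to 1.

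Deviations of same-numbered libraries from their stage means correlated at 0.0478 to 0.669 over 55 pairs of stages, 53 of them over 0.1. Same-numbered libraries thus tended to deviate together. The labels tie the numbers to no shared clutch or day and 2 pairs of stages stayed at or under 0.1, so the model without the block was kept. With a replicate block the change of figla at stage 11 against stage 6 was -1.29 (adjusted p = 0.0574 in limma), and no call of the 4 genes changed. At stage 41 against stage 40 the block gave 2 oocyte regulators that rose, 1 BMP gene that fell and 1 E or ID protein that fell. These falls are of the same gene, id2, which like id3 stands in both lists. At that step quantile normalization gave 0 oocyte regulators that rose and 1 BMP gene that fell. Median-of-ratios scaling gave 2 oocyte regulators and 1 BMP gene that rose and 0 RNA storage genes that fell there, and 7 RNA storage genes that fell at stage 15 against stage 11. Of the 5 genes most alike in profile, Spearman's rho kept 1 for bmp15, 2 for zar1, 2 for zar1l and 3 for figla, stage means kept 2 for bmp15, and a pseudocount of 0.1 kept 3 for figla. The cause of these differences was not tested. The ratio between adult gonads was not run.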
